A study of Mus musculus with 9 samples.

Results

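*Slc24a3*, *Oxr1*, *Rnls* and *Agrn* are 4 mouse genes whose first start site gained or lost a peak of open chromatin in both *Atrx* knockout (KO) clones, and they were chosen by that difference in presence and by the ranks of those peaks. ATAC-seq cuts open chromatin with a transposase, and places with many cuts are called as peaks. The assay was run on C3H/10T1/2 cells, an established mouse line of mesenchymal progenitor cells (MPCs), with 3 wild-type (WT) libraries and 3 libraries of each of the KO clones B10 and G7, 9 in all. Per the study, the control cells received a vector that carried Cas9 without a guide RNA. The KO cells were 2 single clones, each picked after transfection with Cas9 and a different guide RNA against *Atrx*. The text of the study does not use the names B10 and G7, which are taken here to be these 2 clones. All cells, WT included, had therefore been exposed to Cas9, and a difference between a clone and WT cannot be told apart from one between single clones of the same line. Touching or overlapping peaks of the 9 libraries were merged into 135835 regions, and all 139 regions within the 4 gene bodies or 50 kb on either side were taken. Of these, 99 were consensus regions, with a peak in at least 2 of 3 libraries of any line.

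Each library held 76385 to 88535 peaks. Read counts are not in the lists, which leaves the depth unknown, and a missing peak means only that none passed the threshold of the authors (a q-value of 0.05). The strength of a peak is given as its rank, the percentile of its −log10 q among the peaks of its own library, where 100 is the strongest and 0 stands for no peak. Of 12 start sites of *Atrx* itself, 2 held a peak in all 9 libraries, 9 held none in any and 1 was mixed. The best peak at these sites had a rank of 80.8 to 86.0 in every library, so its presence does not separate KO from WT. Ranks of KO and WT within this range were not compared. At least 1 start site of 8 of 9 mesenchymal marker genes held a peak in every library, and that of the ninth, *Ly6a*, in 7. Of 8 markers of other cell types, 4 (*Ptprc*, *Epcam*, *Krt5* and *Sox10*) had no peak in any library and 2 (*Pecam1* and *Rbfox3*) had one in every library.

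The 4 genes have unrelated roles. *Slc24a3* encodes an exchanger of the plasma membrane that carries calcium out of the cell together with potassium, in return for sodium. *Oxr1* (oxidation resistance 1) protects cells against oxidative damage and ends in a TLDc domain, and its promoters make long and short proteins that share this end. *Rnls* encodes renalase, a flavin-dependent oxidase. *Agrn* encodes agrin, a large heparan sulfate proteoglycan of the extracellular matrix that organises acetylcholine receptors at the neuromuscular synapse. Many genes have several start sites, each with a promoter of its own, and the choice of promoter sets the beginning of the transcript and often of the protein. ATRX is a chromatin remodeller that works with DAXX to place histone H3.3 and to keep heterochromatin.

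The promoters of *Slc24a3* and *Agrn* are shown, for each gene with an outer start site that switched beside an inner one without a peak within 1 kb in any library. They are the 250 bases before the start site in RefSeq (mouse build GRCm38.p6, the assembly of mm10), written 5′ to 3′ along the gene. Capitals mark exact matches on either strand to a GC box, which reads GGGCGG, to a CCAAT box, or to the SOX motif CCTTTGT. The outer *Slc24a3* window lies on the plus strand at chr2:145167525-145167774 and the inner one at chr2:145242361-145242610. The outer *Agrn* window lies on the minus strand at chr4:156197489-156197738 and the inner one at chr4:156186260-156186509. The inner *Slc24a3* window ends just before the start of the non-coding Slc24a3-204 (145242611), not that of the protein-coding Slc24a3-201 (145244972). The outer *Slc24a3* window runs past the annotated start site used below (145167754), and the inner *Agrn* window ends upstream of its site at 156186107.

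Slc24a3 outer: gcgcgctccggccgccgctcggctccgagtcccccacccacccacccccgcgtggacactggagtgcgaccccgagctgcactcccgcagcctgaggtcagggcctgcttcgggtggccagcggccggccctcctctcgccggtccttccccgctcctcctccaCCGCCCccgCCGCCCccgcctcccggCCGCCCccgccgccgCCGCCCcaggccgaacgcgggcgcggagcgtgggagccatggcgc
Slc24a3 inner: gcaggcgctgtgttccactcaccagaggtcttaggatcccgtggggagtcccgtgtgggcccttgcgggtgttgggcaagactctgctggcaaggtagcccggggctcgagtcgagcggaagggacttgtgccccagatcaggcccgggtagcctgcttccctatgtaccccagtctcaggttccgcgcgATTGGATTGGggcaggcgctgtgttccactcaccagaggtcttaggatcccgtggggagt
Agrn outer: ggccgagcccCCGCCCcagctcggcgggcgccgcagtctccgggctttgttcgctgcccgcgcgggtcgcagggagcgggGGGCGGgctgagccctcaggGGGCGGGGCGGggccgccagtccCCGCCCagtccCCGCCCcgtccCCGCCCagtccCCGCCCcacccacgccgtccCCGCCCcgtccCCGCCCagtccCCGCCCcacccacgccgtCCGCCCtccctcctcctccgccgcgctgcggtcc
Agrn inner: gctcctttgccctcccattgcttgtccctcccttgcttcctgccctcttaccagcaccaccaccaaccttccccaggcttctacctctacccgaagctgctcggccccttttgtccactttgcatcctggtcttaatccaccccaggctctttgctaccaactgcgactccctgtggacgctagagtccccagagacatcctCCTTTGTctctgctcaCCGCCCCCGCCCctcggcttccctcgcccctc

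Both outer windows were rich in G and C, at 80.8% in *Slc24a3* and 83.6% in *Agrn*, against a median of 52.4% over 32841 RefSeq promoter windows of 250 bases. The inner windows held 63.6% and 60.8%. The outer window of *Slc24a3* held 4 GC boxes and that of *Agrn* 12, of which 2 overlap by 1 base. A GC box was present in 32.7% of all windows. The inner window of *Slc24a3* held no GC box but 2 CCAAT boxes, a motif present in 33.9% of all windows, and both lie 55 to 60 bases before the start site. The inner window of *Agrn* held 2 GC boxes and 1 SOX motif (present in 5.08% of windows). The AP-1 motif, TGACTCA or TGAGTCA, was found in none of the 4 windows (4.46% of all windows hold it). Nor were the TATA box TATAAA (12.4%), the E box CACGTG (6.02%) and the CRE motif TGACGTCA (1.55%). CpG dinucleotides stood at 0.914 of the number expected from base content in the outer window of *Slc24a3* and 0.852 in that of *Agrn*, and at 0.562 and 0.462 in the inner windows (median of all windows 0.374).

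To ask which promoters of the 4 genes were open in which line, annotated start sites (GENCODE M21) at most 500 bp apart were joined into 1 site, which gave 16 sites. A site was called gained in both clones when at least 2 of 3 libraries of each clone had a peak within 1 kb and no WT library had any, and lost in the reverse case. One site was gained, the first of *Slc24a3*. Losses were called at 4 sites, namely the first and second of *Oxr1*, which lie 1.5 kb apart and share 1 region, the only site of *Rnls* and the first of *Agrn*. Over all 52559 start sites of protein-coding genes, 0.441% were gained and 0.656% lost in both clones. Since the genes were chosen for these calls, the counts describe the choice and carry no test. Of the other 11 sites, 1 held a peak in every library, 3 were mixed and 7 held no peak in any library.

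**Figure D1:**
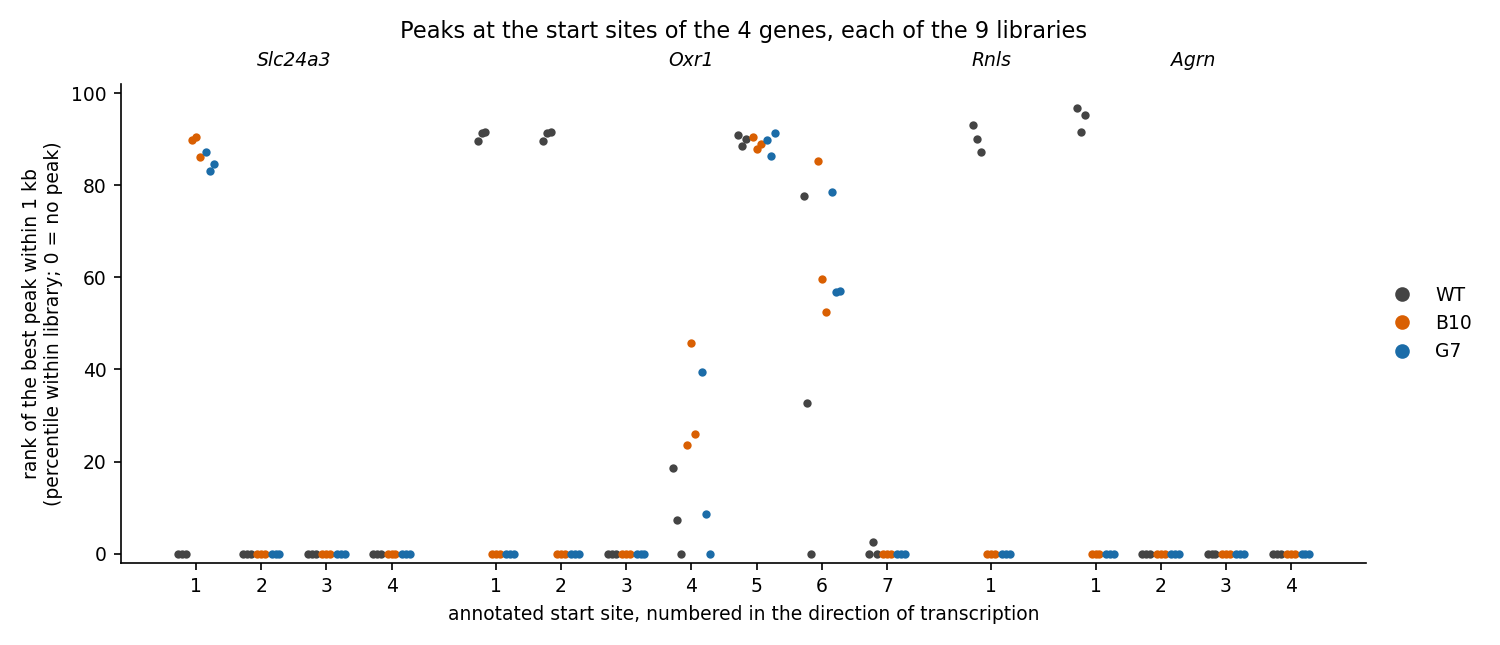
Rank of the best peak within 1 kb (vertical axis, percentile within the library, 0 for no peak) at each of the 16 start sites (horizontal axis), with 1 point per library in 3 colours for WT, B10 and G7. The first sites of *Oxr1*, *Rnls* and *Agrn* stand at 87.3 to 96.7 in WT and at 0 in all 6 KO libraries, the first site of *Slc24a3* shows the reverse, and site 5 of *Oxr1* stays at 86.5 to 91.5 in all 9 libraries.

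At the first start site of *Slc24a3* (chromosome 2, 145167754, plus strand), the region from 145166961 to 145168690 held no peak in any WT library. Its ranks were 89.8, 90.6 and 86.2 in B10 and 87.3, 83.1 and 84.7 in G7. All 6 KO libraries thus held a strong peak there, and the ranges of the clones overlapped (88.9 ± 2.37 in B10 and 85.0 ± 2.14 in G7, SD, n = 3 each). The fold enrichment of these peaks over background, as the peak caller gave it, was 14.6 to 18.1 in B10 and 11.2 to 13.1 in G7, so on this scale the 2 clones did not overlap. The −log10 q was between 123 and 208. Peak summits lay 371 to 442 bp downstream of the start site, so the strongest point was inside the transcribed part. The region covers the first exon of Slc24a3-202, with 305 bp of untranslated and 139 bp of coding sequence, and of the non-coding Slc24a3-205. The nearest peak of a WT library lay 5.4 to 6.2 kb away, and that of WT replicate 1 was weak (rank 12.9).

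The other start sites of *Slc24a3* held no peak within 1 kb in any of the 9 libraries. They begin the non-coding Slc24a3-204 at 145242611, the protein-coding Slc24a3-201 at 145244972 and the non-coding Slc24a3-203 at 145606818, and the nearest region lay 8099, 10460 and 4022 bp away. Slc24a3-202 has 645 codons and Slc24a3-201 has 595, all of which lie in coding sequence of Slc24a3-202. WT libraries therefore held no called peak at any start site of the gene, and KO libraries held one only at the site that begins the longer reading frame.

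At the first start site of *Agrn* (chromosome 4, 156197488, minus strand), the ranks in WT were 96.7, 91.7 and 95.4, the highest of the 4 promoters (94.6 ± 2.61, SD, n = 3). No B10 or G7 library held a peak in the region from 156197082 to 156198224. The fold enrichment in WT was 16.3 to 19.2 and the −log10 q was 242 to 309. Summits were within 5 bp of each other, 412 to 417 bp upstream of the start site. The region covers the first exon of Agrn-206, with 68 bp of untranslated and 207 bp of coding sequence. This transcript has 2034 codons and is the longest of the gene.

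The inner start site of *Agrn* at 156186107 to 156185901, which begins Agrn-202 and Agrn-203 with 1927 and 1950 codons, held no peak within 1 kb in any library. Both transcripts share 92.3% of the coding bases of Agrn-206, and have 148 and 217 coding bases that are not in it. A separate start of this kind is known to give the form of agrin that is anchored in the membrane, while the longer form is secreted. The nearest region, in an intron 2417 bp away (156188524 to 156189494), had mean ranks of 62.0 in WT, 62.8 in B10 and 35.5 in G7. The remaining sites, of Agrn-204 and Agrn-205, held no peak either, so no KO library had a called peak within 1 kb of any start site of *Agrn*.

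At the first start site of *Oxr1* (chromosome 15, 41447482, plus strand), the ranks in WT were 89.6, 91.3 and 91.7 (90.9 ± 1.11, SD, n = 3), and no KO library held a peak in the region from 41446838 to 41448304. The fold enrichment in WT was 16.5 to 17.2 and the −log10 q was 179 to 236. Summits lay 93 to 160 bp upstream of the start site. The nearest peak in a KO library was 8.0 to 41.1 kb away. This site begins Oxr1-204, with 866 codons the longest of the gene, and Oxr1-203, and the region covers 108 bp of their untranslated first exon. The second site, which begins Oxr1-207 and Oxr1-214, lies 723 bp beyond the edge of the same region and has no region of its own.

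Within 1 kb, *Oxr1* was the only 1 of the 4 genes with another start site that held a peak in every library. Within 3 kb, site 2 of *Agrn* also did, through the intronic region 2417 bp away, as did sites 3 and 6 of *Oxr1*. Site 5, at 41788941 and 341 kb into the gene, had ranks of 90.9, 88.5 and 90.0 in WT, 90.5, 87.9 and 89.0 in B10 and 89.8, 86.5 and 91.5 in G7. Its region runs from 41788291 to 41789921, and its lines overlapped fully. B10 and G7, a contrast that was not used to choose the genes, averaged 89.1 ± 1.3 and 89.2 ± 2.54 (SD, n = 3 each). Their difference of -0.11 had a standard error of 1.64 and was smaller than the spread between libraries (exact two-sided permutation p = 1, adjusted p = 1 over the 1 site tested). The smallest p that such a test allows here is 0.1, so it could not have passed 0.05. Neither the labels nor the methods say whether the libraries of a line came from separate cultures, so the p measures only the spread between these libraries. Site 5 begins Oxr1-206, Oxr1-201, Oxr1-202 and Oxr1-215. The first 3 have 832, 778 and 751 codons and hold 86.7% to 89.8% of the coding bases of Oxr1-204. For Oxr1-206, 199 further coding bases are not in Oxr1-204.

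The inner sites 4, 6 and 7 of *Oxr1* varied between libraries. Site 6 (41830932), which begins transcripts of at most 216 codons, had ranks of 77.6, 32.8 and 0 in WT, 85.4, 59.6 and 52.5 in B10 and 78.6, 56.7 and 57.1 in G7. Replicate 1 had the highest rank of every line there, and within each replicate number both clones stood above WT. Without WT replicate 3, site 6 also counts as open in every library, which makes 2 such sites in place of 1. Site 4 (41751698) had ranks of 18.6, 7.4 and 0 in WT, 23.5, 45.7 and 25.9 in B10 and 39.4, 8.7 and 0 in G7. The ranges of WT and B10 did not overlap there, with B10 above WT in each replicate number, while G7 overlapped with both. Site 7 held 1 weak peak, in WT replicate 2 (rank 2.5), and site 3 held none.

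*Rnls* has 1 start site (chromosome 19, 33392295 to 33392265, minus strand) for both of its transcripts, which have 300 and 182 codons. Ranks in WT were 93.1, 90.0 and 87.3 (90.1 ± 2.90, SD, n = 3), and no KO library held a peak in the region from 33391609 to 33392466. Fold enrichment in WT was 15.9 to 19.6 and −log10 q was 160 to 227. With a width of 795 to 835 bp in single libraries, the peak was the narrowest of the 4. It covers the first exon, 341 bp of untranslated sequence of Rnls-202, but its summit lay 459 to 467 bp downstream of the start site, beyond the end of that exon. The nearest peak in every KO library lay 11.4 to 11.6 kb away, in an intron, with ranks of 42.5 to 58.4. With a single annotated start site, *Rnls* has no alternative promoter to compare.

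**Figure D2:**
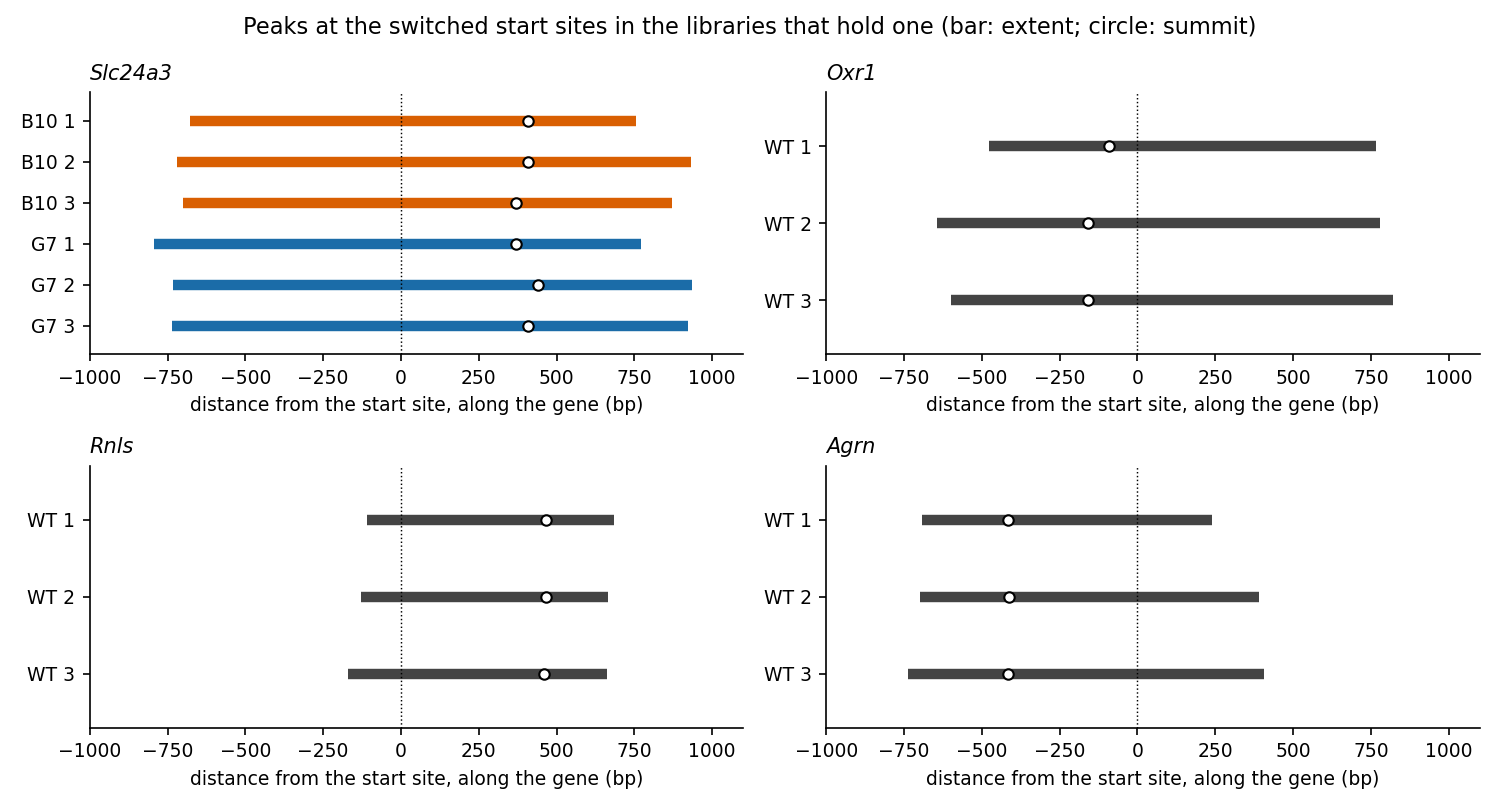
Extent of each called peak (bars) and its summit (circles) by distance from the start site along the gene in bp (horizontal axis), with 1 row per library that holds a peak there, coloured by line. Summits keep their place between libraries, downstream of the start site by 371 to 442 bp in *Slc24a3* and by 459 to 467 bp in *Rnls*, and upstream by 93 to 160 bp in *Oxr1* and by 412 to 417 bp in *Agrn*.

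Base content at the summits was compared with that of other promoters. In the 201 bp around the summit, G and C made up 74.6% in *Slc24a3*, 69.7% in *Oxr1*, 65.7% in *Rnls* and 67.2% in *Agrn*. The median of 16321 consensus regions within 1 kb of a protein-coding start site was 60.7%. CpG dinucleotides stood at 0.931, 0.998, 0.695 and 0.706 of the expected number, with a median of 0.683. No AP-1, SOX, TATA, CCAAT or CRE match was found around the 4 summits, and *Rnls* alone held a GC box and an E box (present around 45.1% and 6.39% of promoter summits). The open site 5 of *Oxr1* had 76.1% G and C and 3 GC boxes.

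The position of the 4 promoters among all switched promoters followed from their choice and is given as a description. Of the 16321 promoter regions, 231 passed the call of a gain in both clones (1.42%) and 365 that of a loss (2.24%). Among them, 123 (0.754%) had peaks in every KO library and in no WT library, and 195 (1.19%) in every WT library and in no KO library. Ordered by the lowest rank on the side with peaks, *Slc24a3* came first of the 123 with a lowest rank of 83.1, and the next was *Gm2237* with 74.3. *Agrn* (91.7), *Oxr1* (89.6) and *Rnls* (87.3) took the first 3 places of the 195, and *Xlr3c* followed with 80.9. *Xlr3c* belongs to a family of near-identical genes and *Gm2237* may do so, which makes the placing of their peaks uncertain.

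**Figure D3:**
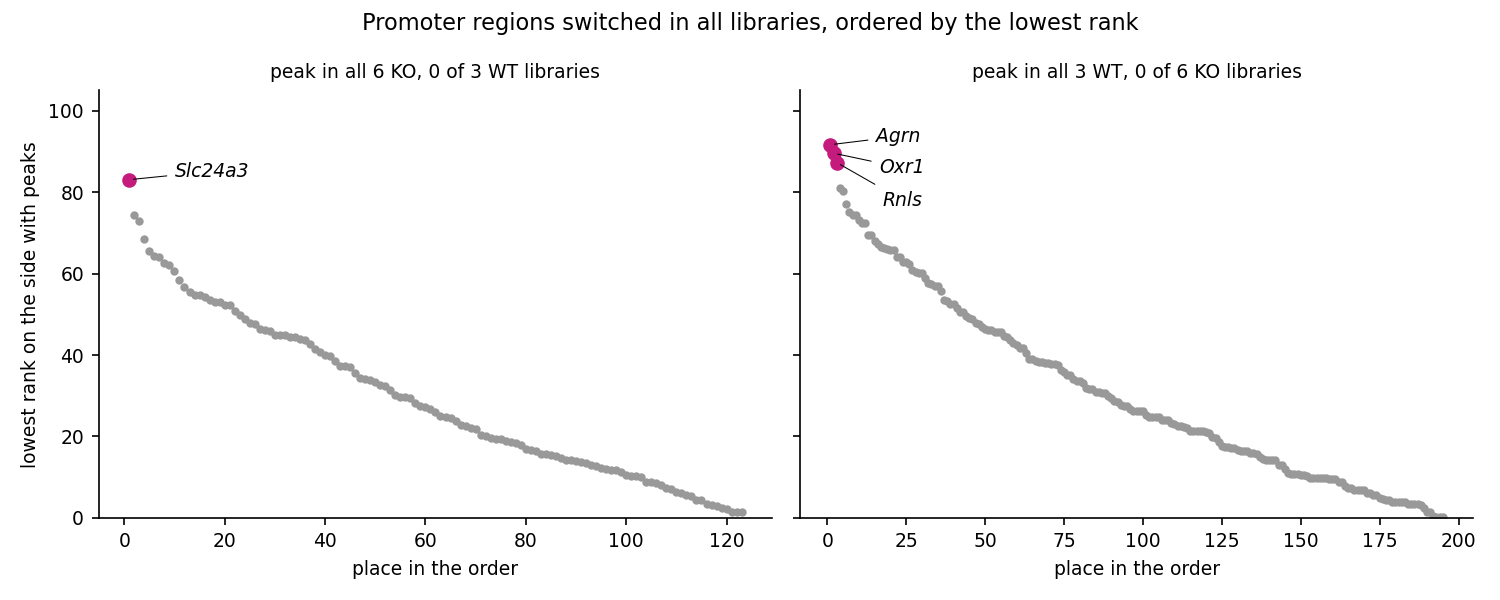
Lowest rank on the side with peaks (vertical axis) of every promoter region present in each of the 6 KO libraries and in no WT library (left, 123 regions) or the reverse (right, 195 regions), against its place in the order. The 4 genes, marked in colour, take the first place on the left (83.1) and the first 3 places on the right (91.7, 89.6 and 87.3), ahead of values of 74.3 and 80.9.

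Other promoters with a like pattern over the 9 libraries were sought among 18660 promoter regions, by the mean absolute difference in rank. Nearest to *Slc24a3* were the shared promoter of *Adal* and *Lcmt2* (2.50 points), *Nim1k* (4.41) and *LTO1* (4.72). Ranks at these 3 were 72.9 to 94.8 in KO libraries, with at most 9.66 in a WT library. For *Oxr1*, *Rnls* and *Agrn* the nearest 3 were *Xlr3c*, *Rgs7* and *B3galt1* in each case, at 2.59 to 4.88 points. These 3 had ranks of 77.1 to 84.5 in WT and no peak in KO libraries.

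To ask whether a lost or gained start is often accompanied by another that is open throughout, all protein-coding genes with such a site were counted. Of 302 genes with a start site lost in both clones, 76 (25.2%) had another site with a peak in every library, as *Oxr1* does. Of 204 genes with a gained site, 92 (45.1%) had one, unlike *Slc24a3*. More than 1 start site is annotated for 228 of the 302 genes and 161 of the 204, and over these the shares were 33.3% and 57.1%. *Rnls*, with its single site, is among those that cannot have another.

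The remaining regions of the loci were then compared. In all 4 loci, 5 consensus regions were gained in both clones (5.05%, against 2.97% of all 97338 consensus regions) and 6 were lost (6.06%, against 4.36%). Of these 11, 4 were the promoters that chose the genes. In B10, 13 regions were gained (13.1%, against 10.4%) and 10 lost (10.1%, against 7.58%), and in G7, 7 were gained (7.07%, against 5.69%) and 7 lost (7.07%, against 7.42%). The 2 clones share their WT controls. All 6 KO libraries and no WT library had a peak in 3 of the gained regions (3.03% of the 99, against 1.08%), and all 3 WT libraries and no KO library in 5 of the lost ones (5.05%, against 1.63%). The promoters by which the genes were chosen make up 1 of these 3 and 3 of these 5. Without the 4 promoters, 4 of 95 regions were gained in both clones (4.21%) and 3 were lost (3.16%, below the 4.36% of all consensus regions), and 2 of each held peaks in every library of one side and in none of the other (2.11%). The gains in both clones rose to 10 without WT replicate 1 and fell to 3 without G7 replicate 1. With replicates 2 and 3 alone, 6 were gained and 8 lost, and with the replicate 1 libraries alone, 1 per line, 17 and 13. All 4 switched promoters were called in each of these settings, which followed from their choice. Every one of the 9 libraries had a peak in 39 regions, and 24 regions rested on a single library.

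**Figure D4:**
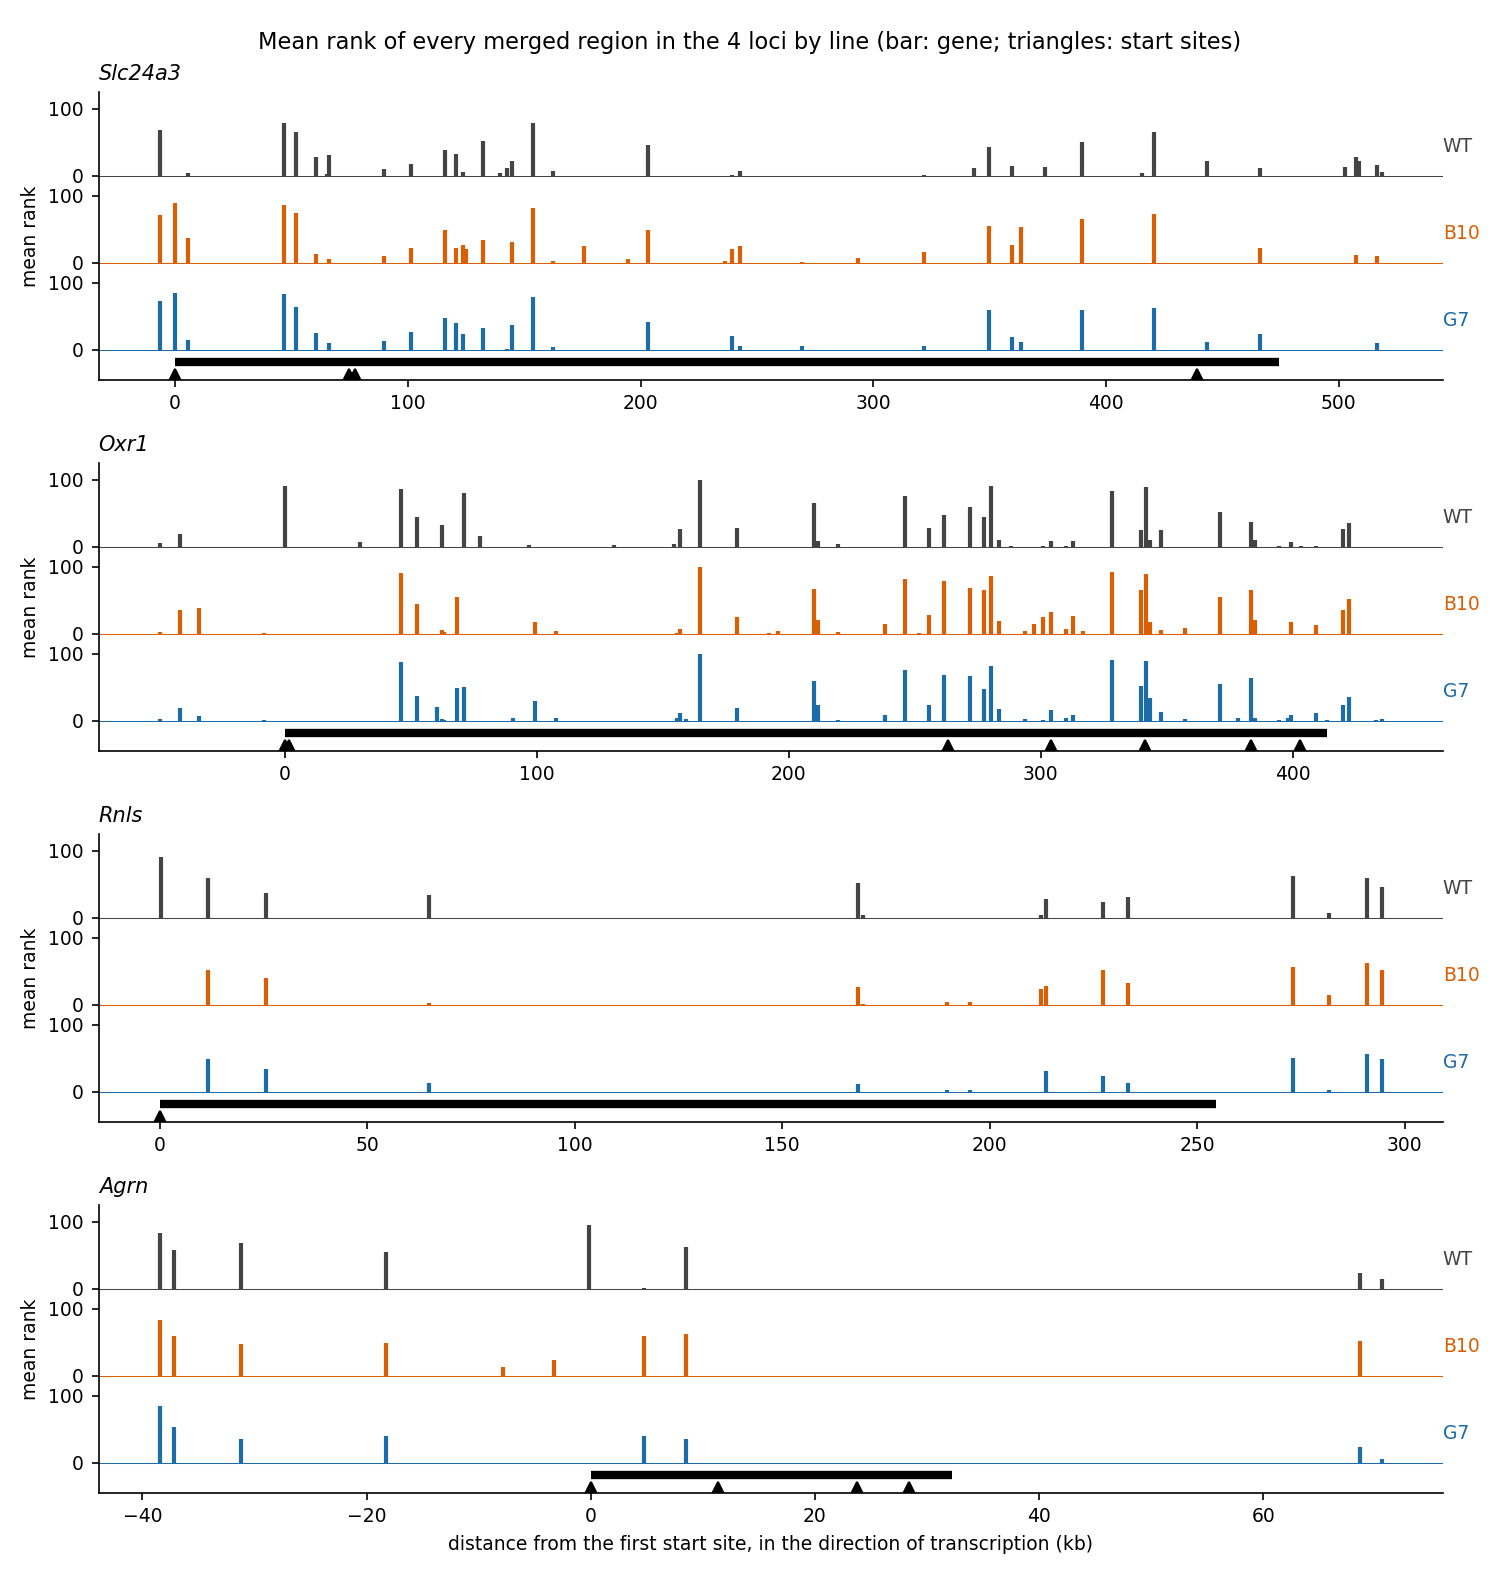
Mean rank over the 3 libraries of each line (vertical axis, 0 to 100 in each track, absent peaks counted as 0) of every merged region against its distance from the first start site along the gene in kb, with the gene body as a black bar and start sites as triangles. The track of WT lacks the bar at 0 kb in *Slc24a3*, the tracks of B10 and G7 lack it in *Oxr1*, *Rnls* and *Agrn*, and 39 of the 139 regions have a peak in every library.

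Beside its promoter, *Slc24a3* held 1 more region gained in both clones, in an intron 363 kb into the gene (145530907 to 145531335). Its ranks were 79.6, 55.4 and 22.7 in B10 and 27.0, 8.7 and 0 in G7, so it was strong in B10 replicates 1 and 2 and weak in G7. An intronic region at 145541059 to 145541952 was lost, but its WT ranks were only 20.8 and 18.2 in replicates 2 and 3. A region beyond the end of the gene, just inside *Rin2*, was lost with WT ranks of 27.4, 10.4 and 29.6 (145676015 to 145676850). It lies within 1 kb of the start site of *Rin2*. It is thus itself a switched promoter region, at place 152 of the 195 with peaks in every WT and no KO library. The start site itself lies in another region (145674899 to 145675725). That region held weak peaks in WT (14.8, 37.2 and 33.2) and B10 (8.9 to 13.4) and none in G7. *Rin2*, *Abra*, *Isg15*, *Perm1*, *Plekhn1* and *Noc2l* are neighbouring genes that, like the single markers above, were named after their values were seen.

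Among the 12 regions of the *Slc24a3* locus with a peak in every library, the mean rank was above that of WT in 10 in B10 and in 8 in G7. On the whole of chromosome 2 this was so for 46.4% of 3616 such regions in B10 and for 20.0% in G7. Over all 47431 such regions of the genome the shares were 56.1% in B10 and 49.5% in G7. Ranks in G7 were lower along chromosome 2, with a median difference from WT of -3.90 points, against -0.03 over the genome. In the locus itself the medians were 8.54 in B10 and 4.59 in G7, with ranges of -17.2 to 15.5 and -19.4 to 16.4. None of the 12 had all 6 KO ranks above or below all 3 WT ranks. In the other loci, the mean rank in B10 was above that of WT in 12 of 16 such regions of *Oxr1*, 3 of 5 of *Rnls* and 4 of 6 of *Agrn*. In G7 it was so in 7, 2 and 2 of them.

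*Oxr1* had the most regions, 68, and 3 intronic gains in both clones. At 41515534 to 41515965, 68 kb into the gene, ranks were 64.5, 47.3 and 54.4 in B10 and 53.1, 43.5 and 48.4 in G7, with no peak in WT. At 41546674 to 41547004 all 6 KO libraries held a weaker peak, of rank 9.0 to 37.7, and at 41685521 to 41685941 only 4 of 6 did, at 3.4 to 25.1. A region at 41518349 to 41519246 had ranks of 78.7, 78.5 and 81.6 in WT, none in B10 and 56.3, 53.0 and 41.6 in G7. It was thus lost in B10 and lower than every WT library in G7. A weak region at 41524686 to 41525245 was lost in both clones (WT ranks 23.9, 14.2 and 10.8).

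Further along *Oxr1*, 2 of its 16 regions with a peak in every library had all 6 KO ranks above all 3 WT ranks. In all 4 loci these were 2 of 39, against 8.56% of 47431 such regions in the genome. The region at 41708566 to 41709503, 1101 bp upstream of start site 3, had ranks of 48.6, 48.4 and 47.2 in WT, 76.2, 80.1 and 80.6 in B10 and 69.1, 67.8 and 69.8 in G7. All B10 libraries also lay above all G7 libraries there. The region at 41787155 to 41787579, which lies 1362 bp upstream of the open start site 5, had ranks of 15.0, 26.2 and 35.0 in WT, 57.3, 76.2 and 64.3 in B10 and 49.6, 57.6 and 48.9 in G7. The strongest region of the locus, in an intron 165 kb into the gene (41611993 to 41612712), had mean ranks of 99.3 in WT, 99.2 in B10 and 99.1 in G7. Over the 16 regions the median difference from WT was 4.62 points in B10 and -0.22 in G7.

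The locus of *Rnls* held no region gained in either clone, and its promoter was its only loss. Its 5 regions with a peak in every library had median differences of 0.35 points in B10 and -2.92 in G7, within a range of -12.5 to 5.55. An intronic region 168 kb into the gene (33223406 to 33224614) had mean ranks of 52.0 in WT, 27.0 in B10 and 11.7 in G7, with peaks in 3, 2 and 1 libraries, which passed no call.

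In the locus of *Agrn* an intronic region 4.8 kb downstream of the lost promoter (156192331 to 156193106) had peaks in each KO library, with mean ranks of 60.1 in B10 and 40.2 in G7. Only replicate 1 did so in WT, at a rank of 2.55, which kept the region from being called gained. A region 3.1 kb upstream of the promoter (156200606 to 156200983), at the start site of *Isg15*, was gained in B10 alone, with ranks of 42.6, 8.9 and 17.5 and none in WT or G7. The difference between the clones at this site was not tested. A region within *Plekhn1* (156228202 to 156229154) was the only one of the 39 with all 6 KO ranks below all WT ranks, against 6.93% of such regions in the genome. Its ranks were 64.0, 71.1 and 68.1 in WT, 42.3, 51.6 and 46.4 in B10 and 11.4, 61.5 and 35.7 in G7.

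**Figure D5:**
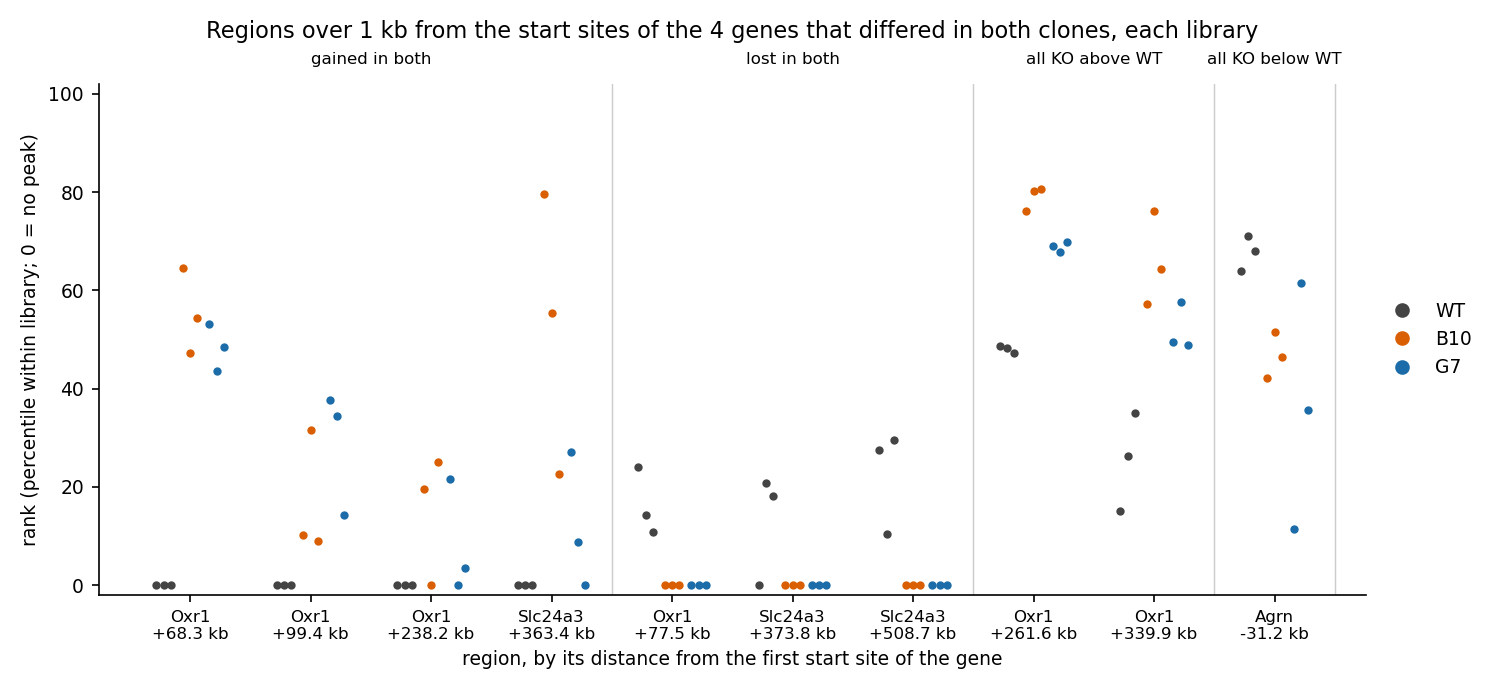
Rank in each library (vertical axis, percentile, 0 for no peak) at the 10 regions over 1 kb from the start sites of the 4 genes that were gained or lost in both clones or, with a peak in every library, had all 6 KO ranks on one side of all 3 WT ranks (horizontal axis, named by gene and distance from its first start site in kb). The gained and lost regions reach ranks of 79.6 and 29.6 at most. The switched promoters of the 4 genes, which were chosen by their ranks, stand at 83.1 to 96.7.

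Neighbouring promoters in the same windows were examined in the same way. Of 10 start sites of 8 other protein-coding genes, 6 held a peak in every library (over all protein-coding start sites 31.5% did), 2 were mixed (*Rin2* and *Isg15*) and 2 held none. The *Rin2* site was mixed by its best peak, although a region within 1 kb of it was lost in both clones. By the best peak within 1 kb, the 6 sites rest on 4 regions, since 3 of them belong to *Plekhn1*. Of these 3, 1 takes its rank from the region of *Noc2l* and the others share the *Plekhn1* region with lower KO ranks. The first of these (156234857) itself lies in a weaker region, 156234155 to 156235158, with a peak in every library and ranks of 51.3 to 62.8. *Noc2l*, upstream of the lost promoter of *Agrn*, had ranks of 80.8 to 87.4 in all libraries. *Perm1* (26.4 to 72.4) and *Abra* (13.4 to 70.3), beyond the end of *Oxr1*, were open in every library with the highest rank in replicate 1 of each line. Within 1 Mb around *Oxr1*, *Rnls* and *Agrn*, regions with a peak in every library had median differences of -0.84 to 1.02 points from WT in both clones. Around *Slc24a3* they were -0.16 in B10 and -3.12 in G7. Within 5 Mb of the 4 promoters, the share of consensus regions lost in both clones was 5.74% around *Slc24a3*, 1.72% around *Oxr1*, 3.99% around *Rnls* and 9.91% around *Agrn* (22 of 222), against 4.36% of all consensus regions. Within 1 Mb the shares lost were 5.38%, 2.78%, 4.3% and, around *Agrn*, 2.35% (2 of 85). The shares gained within 5 Mb were 2.46%, 4.3%, 2.0% and 0.45%, against 2.97%.

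Relatives of the 4 genes by family or pathway were counted as lists. Of 66 start sites of 28 genes, 0 were gained and 1 was lost in both clones, 21 held a peak in every library (31.8%), 39 held none (59.1%) and 5 were mixed. Over all protein-coding start sites, 31.5% held a peak in every library and 58.4% held none, so these shares lie near the background. The lost site was an inner one of *Il4i1*, a flavin-dependent amino acid oxidase, with ranks of only 0, 0.457 and 2.44 in WT. Sodium and calcium exchangers had a peak in every library at 3 of 19 sites, and no site of the 4 other potassium-dependent exchangers held a peak in any library. Among TLDc domain genes, 3 of 4 had a site with a peak in every library. Among 9 genes of the agrin receptor and the neuromuscular synapse, 5 did and 4 had no peak, and among 7 flavin amine oxidases, 6 did and 1 had none.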

How the data were processed

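The authors aligned paired-end reads to mm10 with Rsubread and called peaks with MACS2 in paired-end mode, separately for each replicate. Per the labels, 3 libraries each were WT, B10 and G7. For every peak the deposited lists give its fold enrichment (a ratio over background), a p-value and a q-value as −log10, and a display score. The fold enrichment and the −log10 q-value were used to describe and rank peaks, and the score and the −log10 p-value were not used. The names of the deposited lists mention an input, which the methods for ATAC-seq do not describe, so the background of the fold enrichment is unclear. ENCODE blacklisted regions were left out of region analyses per the methods for CUT&RUN, and whether this held for the ATAC-seq lists is not given in the sources used here. Peaks of the 19 autosomes and of X and Y were merged where they touched (Python 3.11.15, pandas 2.3.3, numpy 2.4.6), and the best peak of a library stood for a region. Since peak lists carry no read counts, the count test of the study (DESeq2) could not be run, and presence and ranks were compared. The merging and the calls were tested on simulated data. The members and lists were chosen with earlier results of these data known, so the contrast of KO with WT is described without a test. Besides the 4 genes, the genes named by rule were the 3 nearest in pattern for each, the next in the order of switched promoters, and relatives called in both clones. Neighbouring genes and single markers were named after their values were seen. B10 and G7 were compared by an exact permutation test (scipy 1.17.1). Ranks of libraries with the same replicate number deviated together (correlations of 0.382 to 0.796 over the 39 regions of the loci with a peak in every library, for 9 pairs of libraries), so the numbers were taken to pair libraries. Pairs with different numbers ran from -0.712 to 0.534, and the highest of these (WT replicate 2 with B10 replicate 3) was above 6 of the 9 same-number pairs. Replicate 1 correlated negatively with replicates 2 and 3 in every pair of lines. The deviations were taken from the mean of each line and so cancel within it. Negative values between different numbers are therefore forced in part and do not bear on the pairing. Promoter windows of *Oxr1* and *Rnls* were not used here.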

Additional observations from a re-analysis of the deposited data

Results flagged for a closer look

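One intronic region of *Slc24a3* (145288345 to 145288764) stood out because the clones lay on opposite sides of the WT mean. Every B10 library ranked below the WT mean (difference in means -11.18 points, from 32.4 in WT to 21.2 in B10) and every G7 library above it (difference 7.44, to 39.8). WT itself varied from 17.2 to 45.3 (SD 14.2, n = 3), a range that holds all KO values but that of B10 replicate 3 (13.9). Within replicate numbers the directions were mixed, since B10 differed from WT by 6.63, -8.81 and -31.3 points and G7 by 24.6, 4.38 and -6.68. The difference between the clones was not tested. This was 1 of 39 regions of the loci with a peak in every library (2.56%), against 5.19% of 47431 such regions in the genome.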

How the results depend on the processing

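The 4 switched promoters were called in both clones in all 19 alternative settings for the counts. This followed from their choice, since each had strong peaks in every library of one side and none on the other. Gains in both clones, 5 in all, became 2 when the side with peaks had to reach a −log10 q of 10, 8 when every list was cut to the same number of peaks and 17 with the replicate 1 libraries alone, and leaving out libraries gave 3 to 10. Losses, 6 in all, became 13 with the replicate 1 libraries alone and 5 to 8 when libraries were left out. Start sites with a peak in every library, 1 in all, became 4 within 3 kb (3 of *Oxr1* and 1 of *Agrn*) and 1 to 2 when libraries were left out. The mean KO rank at *Slc24a3*, 86.96, became 81.66 when ranked by fold enrichment. Left-out libraries moved the mean ranks to 86.2 to 87.7 in *Slc24a3*, 90.4 to 91.5 in *Oxr1*, 88.6 to 91.5 in *Rnls* and 93.5 to 96.0 in *Agrn*. The B10 to G7 difference at the open site of *Oxr1* ran from -1.49 to 1.01 with libraries left out, with its sign reversed in 3 of 6, namely 0.507 without B10 replicate 2, 0.148 without G7 replicate 1 and 1.01 without G7 replicate 3. With the replicate block it stayed at -0.11 (exact permutation p = 1, where 3 pairs allow no p under 0.25), and the block changed no call. The causes of these changes were not tested. Peak lists without read counts limit every value here, since a peak just under the threshold counts as absent.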
